A study of Mus musculus with 15 samples.

Results

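The genes described here encode the subunits of the oxidative phosphorylation system. They were chosen by gene symbol: the structural Ndufa, Ndufb, Ndufc, Ndufs and Ndufv genes, Sdha to Sdhd, the Uqcr genes and Cyc1, the Cox4i to Cox8 genes, the Atp5 genes, and the 13 mRNAs of the mitochondrial genome, without assembly factors and without symbols marked as pseudogenes. The rule took 104 of the 56980 gene IDs in the deposited table, of which 91 are nuclear and 13 mitochondrially encoded. By complex these were 47 genes of complex I, 4 of complex II, 10 of complex III, 23 of complex IV, to which Ndufa4 was assigned, and 20 of complex V. Ndufa4l2, a relative of Ndufa4, was counted in complex I by its symbol. A filter on low counts left 95 of them for testing, 82 nuclear and 13 mitochondrially encoded, among 14627 genes tested in all. The 9 left out were Cox4i2, Cox6b2, Cox7b2, Cox8c, Cox6c2, Ndufa11b, Ndufb4c, Ndufs6b and a second Atp5o identifier with 0 counts. Of these, Cox6c2, Ndufa11b, Ndufb4c and Ndufs6b are annotated as processed pseudogenes without a mark in the symbol, and the counts by complex include them.

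RNA was measured by poly(A) RNA sequencing in livers of wild-type male C57BL/6J mice, an inbred strain, that were given 1 of 3 diets from an age of 15 weeks and for 9 months. All library titles, in every diet, also carry the letters ALF, which the titles do not explain. The control diet held 10% fat (label Control, 5 libraries), the high-fat diet 60% (label HFD, 5 libraries) and the ketogenic diet, which drives the liver to make ketone bodies, 89.9% (label Keto, 5 libraries). Control replicate 1, marked by the submitters as contaminated, was left out, so that 4 control libraries were compared with 5 and 5. No label says whether each library came from its own mouse, so the p-values measure the spread between these libraries. Total counts of the 14 libraries ran from 16329425 to 25349148. Hepatocyte marker genes took 15.2% to 16.8% of counts in controls, 12.4% to 14.5% on the high-fat and 10.8% to 14.5% on the ketogenic diet. All 11 had negative log2 fold changes in both comparisons with control. By edgeR 1 and 2 of the 11 were called lower, where 5.01% and 4.6% of all tested genes were. Stellate cell and fibroblast markers took 0.0249% to 0.0281%, 0.03399% to 0.0493% and 0.0283% to 0.0825%. Ketogenic replicate 5 had the lowest hepatocyte share, the highest stellate, Kupffer cell (0.0718%) and lymphocyte (0.00883%) shares and the highest library scaling factor (TMM, 1.215) of the 14 libraries. The part of these in the results was not tested. Without that library 3 subunit genes were called in the ketogenic comparison with control in place of 2, with Cox8b added, and the nuclear median log2 fold change was 0.03. In whole liver, fewer cells of a type and less RNA per cell cannot be told apart.

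Oxidative phosphorylation is carried out in the inner mitochondrial membrane. Complexes I and II take electrons from NADH and from succinate, complex III hands them from ubiquinol to cytochrome c, complex IV reduces oxygen, and complex V, the ATP synthase, uses the resulting proton gradient to make ATP. Most subunits are encoded in the nucleus and imported, while the mitochondrial genome encodes core subunits of complexes I, III, IV and V but none of complex II. The liver uses this chain to reoxidise the NADH and reduced flavoproteins made by fatty acid oxidation, the pathway that feeds ketone body synthesis.

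The mRNAs of the subunits differed little between the diets. In the high-fat comparison with control, 0 of the 95 tested genes passed the quasi-likelihood test of edgeR, adjusted by Benjamini-Hochberg over all genes at a threshold of 0.05, where 12% of all tested genes did. The count was 2 at an unadjusted p under 0.05 (27.4% of all genes), and DESeq2 also called 0 (16.7% of all genes). In the ketogenic comparison with control 2 genes passed by edgeR, Atp5s higher and mt-Nd4l lower, against 12.1% of all genes, 7.47% higher and 4.6% lower, with 9 at an unadjusted p under 0.05 (28% of all genes). DESeq2 called 3, with Cox7a2l lower as the added gene, against 16.6% of all genes. Between the ketogenic and the high-fat diet 0 passed by either tool, where 0.0615% of all genes passed by edgeR and 1.18% by DESeq2, and 4 had an unadjusted p under 0.05 (8.7% of all genes). The share of all genes depended on ketogenic replicate 5. Without that library it was 2.19% by edgeR, and 0 subunit genes passed.

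The sizes of the differences were small in every complex. The median log2 fold change of the 82 nuclear genes was 0.02 in the high-fat and −0.02 in the ketogenic comparison with control, and −0.05 between the ketogenic and the high-fat diet. Over all genes tested these medians were 0.01, 0.03 and 0.02. Scaling by library totals in place of TMM, a scaling that sets most genes to no change, moved the median of all genes to 0.13 for high-fat and 0.21 for ketogenic against control, and that of the nuclear subunit genes to 0.14 and 0.12, which turned the sign of the ketogenic value. By complex, the medians for ketogenic against control were −0.01 for the 37 nuclear genes of complex I, −0.07 for the 4 of complex II, −0.03 for the 9 of complex III, 0.01 for the 15 of complex IV and −0.03 for the 17 of complex V. The 13 mitochondrially encoded mRNAs had medians of −0.00, 0.09 and 0.09 in the 3 comparisons.

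The precision was enough to bound many of these differences. The 95% confidence interval of the log2 fold change lay inside ±0.5 for 60 of the 95 genes in the high-fat comparison with control, 48 in the ketogenic comparison with control and 64 between the ketogenic and the high-fat diet. These are 63.2%, 50.5% and 67.4% of the genes, where 30.8%, 31.0% and 45.5% of all tested genes had such an interval. Abundant genes have narrower intervals, and of the 5538 genes with a mean of at least 20 CPM the shares were 49.96%, 49.7% and 72.8%. Inside ±1 lay 92, 90 and 91 of the 95. The intervals are not independent of each other, because the nuclear subunit genes moved together between libraries, as described below. Groups that did not overlap in CPM (counts scaled to the size of the library, by TMM) were found for 2, 2 and 0 of the 95 genes, against 16.2%, 12.5% and 1.76% of all tested genes. The 2 in the high-fat comparison were Atp5s and Ndufa10, both higher, and the 2 in the ketogenic comparison were Atp5s and mt-Nd4l.

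**Figure D1:**
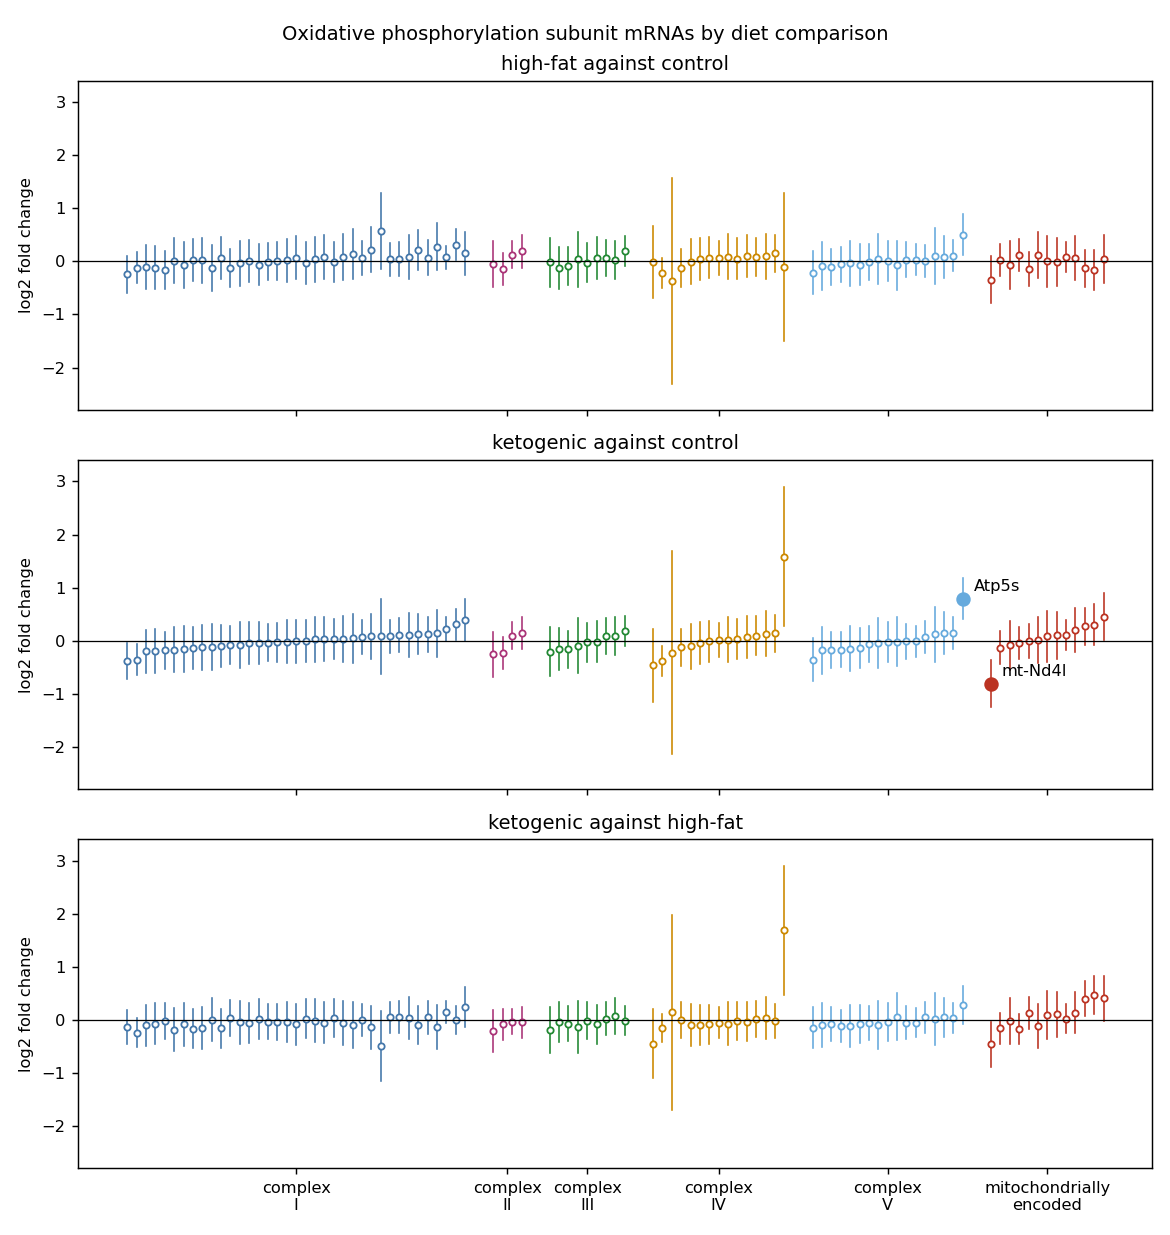
Log2 fold change (vertical axis) of the 95 tested subunit genes in the 3 diet comparisons, grouped by complex for nuclear genes and with the mitochondrially encoded mRNAs last; genes keep 1 order in all panels, sorted by the ketogenic against control value, and lines are 95% confidence intervals. Filled points passed the adjusted p threshold: only Atp5s (0.79) and mt-Nd4l (−0.81) in the ketogenic comparison with control did.

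Atp5s encodes factor B, a protein that associates with the ATP synthase and was measured here at a low level. It stood at 2.26, 3.36, 2.77 and 3.20 CPM in control replicates 2 to 5. The high-fat libraries held 3.87, 4.09, 3.48, 4.17 and 4.97 CPM, and the ketogenic libraries 5.98, 5.41, 4.09, 5.65 and 3.99 CPM. Every library on either fat-rich diet lay above every control, while the ketogenic and high-fat ranges overlapped. The log2 fold change was 0.79 ± 0.18 (SE) for ketogenic against control (edgeR adjusted p = 0.0108) and 0.51 ± 0.19 for high-fat against control (edgeR adjusted p = 0.0867). The ketogenic call held without any 1 of the 14 libraries, with edgeR adjusted p from 0.00642 to 0.0409, and ended with the replicate number as a block (0.76, edgeR adjusted p = 0.0503).

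The gene that fell, mt-Nd4l, encodes a small core membrane subunit of complex I. It was measured at 6.67, 4.17, 7.78 and 8.17 CPM in the controls and at 4.57, 5.04, 7.14, 5.79 and 3.78 CPM on the high-fat diet. The ketogenic libraries held 3.86, 4.15, 3.06, 3.90 and 4.10 CPM, all below the lowest control, with 4.15 against 4.17 CPM at the closest. The log2 fold change for ketogenic against control was −0.81 ± 0.21 (edgeR adjusted p = 0.0206). Without control replicate 4 it was −0.73 with an edgeR adjusted p of 0.0763, and without control replicate 5 it was −0.71 with an edgeR adjusted p of 0.0740, so the call ended in each case.

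The reads of mt-Nd4l are hard to assign, because the nuclear genome holds copies of mitochondrial sequence. In the GENCODE M21 transcripts, 98.8% of the 50-base windows of mt-Nd4l also occur in the annotated gene Gm10222, and all 294 bases of Gm10222 match bases 1 to 294 of mt-Nd4l. The first 60 bases of each are shown to make this plain; every base is the same, and no letter is in capitals because none differs.

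mt-Nd4l: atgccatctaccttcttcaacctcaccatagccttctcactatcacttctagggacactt
Gm10222: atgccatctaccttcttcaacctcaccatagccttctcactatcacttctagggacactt

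Over the 14 libraries 1464 reads were counted to mt-Nd4l and 1036 to Gm10222. Gm10222 did not follow mt-Nd4l: its mean was 3.59 ± 0.58 CPM (SD, n = 4) in controls, 3.58 ± 0.51 (n = 5) on the high-fat and 3.599 ± 0.53 (n = 5) on the ketogenic diet. The summed CPM of both was 10.3 ± 2.01 in controls, 8.84 ± 1.63 on the high-fat and 7.42 ± 0.87 on the ketogenic diet. In the cell mt-Nd4l shares 1 mRNA with mt-Nd4, and their annotated genes overlap by 7 bases. The mean of mt-Nd4 was 3352 CPM over the 14 libraries, 650 times that of mt-Nd4l, and stood at 3197 ± 396 CPM in controls, 3385 ± 363 on the high-fat and 3442 ± 372 on the ketogenic diet, with overlapping groups. No source used here says how reads with several matches were counted, and the part of this in the fall of mt-Nd4l was not tested.

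Several other mitochondrially encoded mRNAs share their sequence in the same way, and the counted levels were very uneven. Counted above 1000 CPM were mt-Co1 and mt-Cytb, core subunits of complexes IV and III, with means over the 14 libraries of 15160 and 9426 CPM, and mt-Nd2, mt-Nd1, mt-Nd5 and mt-Nd4, core membrane subunits of complex I, with 5456, 4915, 4623 and 3352 CPM. All others lay below 100 CPM: mt-Nd6, the subunit gene on the other strand, at 83.7, mt-Atp6 at 25.3, mt-Co2 at 25.1, mt-Co3 at 17.7, mt-Atp8 at 9.18, mt-Nd3 at 5.24 and mt-Nd4l at 5.16 CPM. Of these 7, 5 share at least 98.0% of their 50-base windows with another annotated gene. Those are mt-Co2 (100%), mt-Co3 (99.9%), mt-Atp6 (99.5%), mt-Nd4l (98.8%) and mt-Nd3 (98.0%), while mt-Nd6 and mt-Atp8 share none.

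The copies also took reads, from fewer to more than the mitochondrial gene did. The copy of mt-Co2, Gm28661, is identical to it over 681 bases and took 7267 reads where mt-Co2 took 7252. The copy of mt-Co3, Gm28437, is identical over 783 bases and took 7301 reads where mt-Co3 took 5071. The copy of mt-Atp6, Gm10925, is identical over 678 bases and took 9508 reads where mt-Atp6 took 7258. The copy of mt-Nd3, Gm28438, matches 344 of 345 bases, the difference being T3C, counted from the first base of mt-Nd3, and took 454 reads where mt-Nd3 took 1491. The first 60 bases of the mt-Co2 pair, the pair with nearly equal counts, again hold the same letters throughout.

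mt-Co2: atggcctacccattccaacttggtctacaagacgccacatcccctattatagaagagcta
Gm28661: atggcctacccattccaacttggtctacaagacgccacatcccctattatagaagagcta

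The CPM of these 5 mRNAs are therefore uncertain as levels of mitochondrial RNA. Of the 6 mRNAs counted above 1000 CPM, mt-Nd4 shares 62.2% and mt-Co1 51.1% of their windows with other genes. The gene sharing the most windows with each, Gm28439 for mt-Nd4 and Gm29216 for mt-Co1, took 5495 and 5450 reads, against 961734 for mt-Nd4 and 4318065 for mt-Co1.

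**Figure D2:**
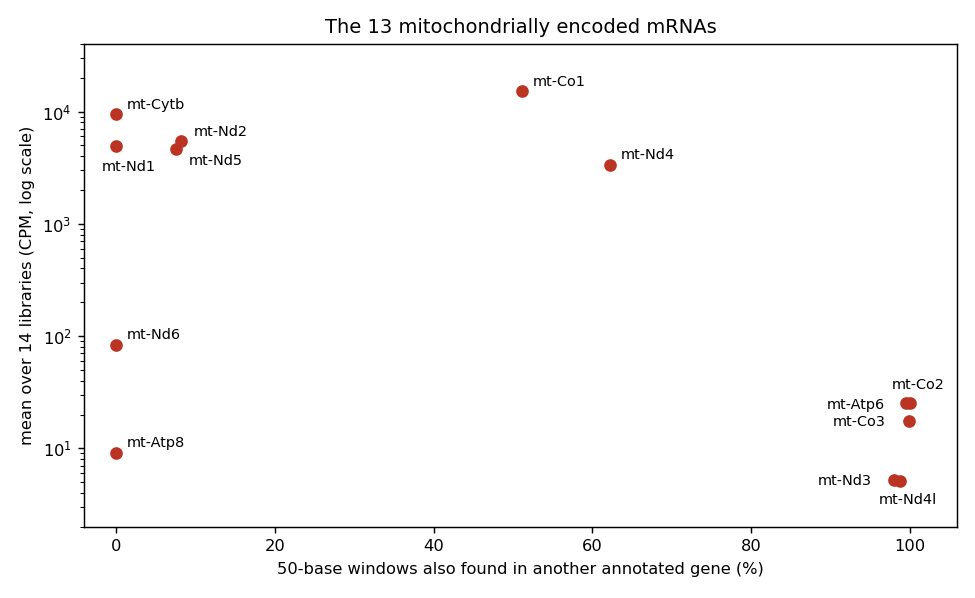
Mean level over the 14 libraries (CPM, logarithmic vertical axis) of each mitochondrially encoded mRNA against the share of its 50-base windows that also occur in another annotated gene (horizontal axis, percent). The 5 mRNAs at 98.0% or more all lie at 25.3 CPM or below, and mt-Nd6 and mt-Atp8 are low with no shared window.

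Among the abundant mitochondrially encoded mRNAs, those of mt-Nd1 and mt-Nd2 had the largest ketogenic values. mt-Nd1 stood at 5179, 4003, 4354 and 5323 CPM in controls and 3737, 5280, 4095, 4305 and 4128 CPM on the high-fat diet. Ketogenic libraries held 4809, 7161, 6512, 5522 and 4401 CPM, with 3 of 5 above every other library. The log2 fold change was 0.40 ± 0.16 for ketogenic against high-fat (edgeR adjusted p = 0.440) and 0.27 ± 0.17 for ketogenic against control (edgeR adjusted p = 0.309). mt-Nd2 held 5187, 4542, 5252 and 5904 CPM in controls, 3761, 5533, 4645, 4923 and 4400 CPM on the high-fat diet and 5571, 8504, 7407, 6249 and 4502 CPM on the ketogenic diet. Its log2 fold change was 0.47 ± 0.17 against high-fat (edgeR adjusted p = 0.371) and 0.30 ± 0.18 against control (edgeR adjusted p = 0.283). Neither passed the test. By library totals in place of TMM both were called higher against control, mt-Nd1 at 0.43 and mt-Nd2 at 0.46 (edgeR adjusted p = 0.0454 and 0.0439). In both genes ketogenic replicates 2 and 3 were the highest and replicate 5 the lowest of their group.

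The uncertain mt-Co2, which encodes the subunit that accepts electrons from cytochrome c, showed the same 2 libraries on top. It was measured at 24.04, 19.5, 19.5 and 24.6 CPM in controls, 17.6, 20.2, 22.1, 25.7 and 27.7 CPM on the high-fat diet and 17.95, 40.5, 40.2, 24.3 and 27.2 CPM on the ketogenic diet. Its log2 fold change was 0.45 ± 0.21 for ketogenic against control (edgeR adjusted p = 0.175), and its copy Gm28661 went from 23.02 CPM in controls to 29.3 CPM on the ketogenic diet. The other mitochondrially encoded mRNAs had overlapping groups in all comparisons. mt-Co1 averaged 15545 ± 1848 CPM (SD, n = 4) in controls, 15831 ± 2098 (n = 5) on the high-fat and 14180 ± 1680 (n = 5) on the ketogenic diet. mt-Cytb averaged 9263 ± 1254, 10044 ± 1185 and 8938 ± 959 CPM, and mt-Nd5 averaged 4804 ± 487, 4339 ± 773 and 4763 ± 468 CPM, in the same order. As a share of all counts the 13 mRNAs made up 3.98% ± 0.34 in controls, 4.34% ± 0.63 on the high-fat and 4.53% ± 0.26 on the ketogenic diet.

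Of the nuclear subunits of complex I none passed the test in any comparison by edgeR, with 1, 4 and 0 of 37 at an unadjusted p under 0.05 in the high-fat, ketogenic and ketogenic against high-fat comparisons. DESeq2 called none of them either. The 4 genes with the smallest ketogenic p-values went in opposite directions and are named after their values were seen. The accessory subunit gene Ndufa10 held 131, 111, 125 and 137 CPM in controls, 152, 158, 146, 168 and 161 CPM on the high-fat diet and 128, 171, 196, 170 and 119 CPM on the ketogenic diet. All 5 high-fat libraries lay above the controls, and ketogenic replicates 1 and 5 lay among them. Its log2 fold change was 0.31 ± 0.14 in each comparison with control (edgeR adjusted p = 0.149 for high-fat and 0.152 for ketogenic). Ndufs1, the largest core subunit, which carries iron-sulfur clusters, had a log2 fold change of 0.22 ± 0.10 (edgeR adjusted p = 0.176) for ketogenic against control.

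A pair of accessory subunit genes pointed the other way. Ndufa6 held 136, 120, 110 and 131 CPM in controls and 73.0, 95.5, 127, 101 and 88.1 CPM on the ketogenic diet, with only replicate 3 inside the control range. Ndufa8 held 110, 83.9, 88.2 and 97.1 CPM in controls and 55.8, 66.9, 101, 76.9 and 61.3 CPM on the ketogenic diet, again with replicate 3 inside the control range. The log2 fold changes were −0.36 ± 0.14 for Ndufa6 and −0.39 ± 0.16 for Ndufa8 (edgeR adjusted p = 0.107 and 0.131). Without ketogenic replicate 3, Ndufa6 (−0.47), Ndufa8 (−0.54) and Cox7a2l (−0.50) passed as lower beside Atp5s and mt-Nd4l, with edgeR adjusted p of 0.0192, 0.0173 and 0.00957, so that 5 genes were called in place of 2.

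Complex II, succinate dehydrogenase, links the citric acid cycle to the chain, and 0 of its 4 genes passed in any comparison by edgeR or DESeq2, with 0 at an unadjusted p under 0.05. Sdha, which encodes the flavoprotein that oxidises succinate, held 533, 578, 522 and 613 CPM in controls, 653, 605, 564, 643 and 591 CPM on the high-fat diet and 582, 617, 654, 673 and 463 CPM on the ketogenic diet. The 3 groups overlapped, with ketogenic replicate 5 the lowest of all 14 libraries. By library totals in place of TMM, Sdha was called higher on the ketogenic diet against control. Sdhb, the iron-sulfur subunit, averaged 216 ± 25.1, 209 ± 44.1 and 181 ± 54.6 CPM in control, high-fat and ketogenic libraries. The membrane anchors Sdhc and Sdhd averaged 174 ± 18.5, 199 ± 29.8 and 192 ± 35.4 CPM, and 209 ± 18.5, 189 ± 19.7 and 179 ± 38.6 CPM.

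In complex III the most abundant nuclear gene by CPM was Uqcrc1, a core protein of the matrix side, at 268 ± 18.6 CPM in controls, 272 ± 29.1 on the high-fat and 286 ± 74.1 on the ketogenic diet. Cyc1, cytochrome c1, which passes electrons to cytochrome c, averaged 214 ± 22.0, 201 ± 34.2 and 191 ± 44.7 CPM. For all 9 nuclear genes the ketogenic against control log2 fold changes lay between −0.21 and 0.18, and 0 passed by edgeR or DESeq2, with 0 at an unadjusted p under 0.05.

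Complex IV, cytochrome c oxidase, has subunits with alternative forms for particular tissues. The forms that liver uses were abundant: Cox4i1 averaged 363 ± 47.6, 362 ± 73.4 and 338 ± 100 CPM in control, high-fat and ketogenic libraries, Cox6a1 averaged 184 ± 23.5, 197 ± 31.0 and 193 ± 56.3 CPM, and Cox8a averaged 136 ± 20.7, 143 ± 17.998 and 138 ± 26.7 CPM. Cox7a2 averaged 108 ± 23.1, 112 ± 18.3 and 105 ± 25.7 CPM. Ndufa4, a subunit once placed in complex I, averaged 226 ± 34.7, 234 ± 34.2 and 231 ± 61.9 CPM, and its relative Ndufa4l2 stood at 1.002 ± 0.48, 1.495 ± 0.33 and 1.06 ± 0.31 CPM. None of these passed the test.

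Cox7a2l, a relative of the Cox7a genes, came closest to passing among the abundant genes. Control libraries held 93.0, 98.6, 101 and 107 CPM, high-fat libraries 91.9, 71.7, 77.6, 93.3 and 91.9 CPM, and ketogenic libraries 59.4, 77.1, 100.2, 75.4 and 69.7 CPM. Ketogenic libraries lay below the controls except for replicate 3. The log2 fold change was −0.39 ± 0.13 for ketogenic against control (edgeR adjusted p = 0.0705; DESeq2 −0.40, adjusted p = 0.0381) and −0.23 ± 0.13 for high-fat against control (edgeR adjusted p = 0.288).

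Of the 7 complex IV forms known from heart, skeletal muscle, brown fat, lung or testis, 3 passed the filter. Cox7b2 and Cox8c had 0 counts in all 14 libraries, and Cox4i2 and Cox6b2 had 31 and 67 reads in all. Cox6a2, the heart and skeletal muscle form, was at 0 CPM in control replicate 2 and in ketogenic replicate 2 and at 0.05 in high-fat replicate 5, while it reached 1.07, 1.17 and 1.52 CPM in control replicate 3, high-fat replicate 4 and ketogenic replicate 4. The 3 libraries where it was lowest were those with the least skeletal muscle marker RNA. There the 10 muscle markers summed to 0.000152%, 0.000121% and 0.000244% of counts, against 0.00217% to 0.0153% in the others. All 10 markers were detected, with 870 to 4679 reads each over the 14 libraries, and no muscle marker gene differed between the diets by the test. Their part in the level of Cox6a2 was not tested.

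Cox8b, the muscle and brown fat form of subunit 8, had the largest fold change of any subunit gene but at very low counts, 192 reads in all. It held 0.17, 0.71, 0.46 and 0.17 CPM in controls, 0.40, 0.18, 0.23, 0.73 and 0.20 CPM on the high-fat diet and 0.93, 0.63, 1.89, 2.11 and 0.29 CPM on the ketogenic diet. Ketogenic replicates 1, 3 and 4 lay above all other libraries, and replicates 2 and 5 lay within the range of the other diets. The log2 fold change was 1.58 ± 0.61 for ketogenic against control (edgeR adjusted p = 0.106) and 1.68 ± 0.57 against high-fat (edgeR adjusted p = 0.342). Without ketogenic replicate 5 it was 1.82 with an edgeR adjusted p of 0.0378. Of the brown fat marker genes Ucp1, Zic1 and Dio2 had 33, 7 and 8 reads in all, while Elovl3 and Cidea had 40259 and 7654. The 5 brown fat markers summed to 0.00327% to 0.0123% of counts in controls, 0.0168% to 0.0263% on the high-fat and 0.00671% to 0.0317% on the ketogenic diet. Nearly all of these reads were of Elovl3 and Cidea. Ucp1 had at most 13 reads in a library, in control replicate 3, and 12 in ketogenic replicate 5. It had 1 and 0 in ketogenic replicates 3 and 4, where Cox8b was highest. The part of these markers in Cox8b was not tested. Cox7a1, the muscle and brown fat form of subunit 7a, averaged 1.49 ± 0.59, 1.47 ± 0.46 and 1.08 ± 0.26 CPM in control, high-fat and ketogenic libraries, with a log2 fold change of −0.47 for ketogenic against control and a 95% interval from −1.16 to 0.22.

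**Figure D3:**
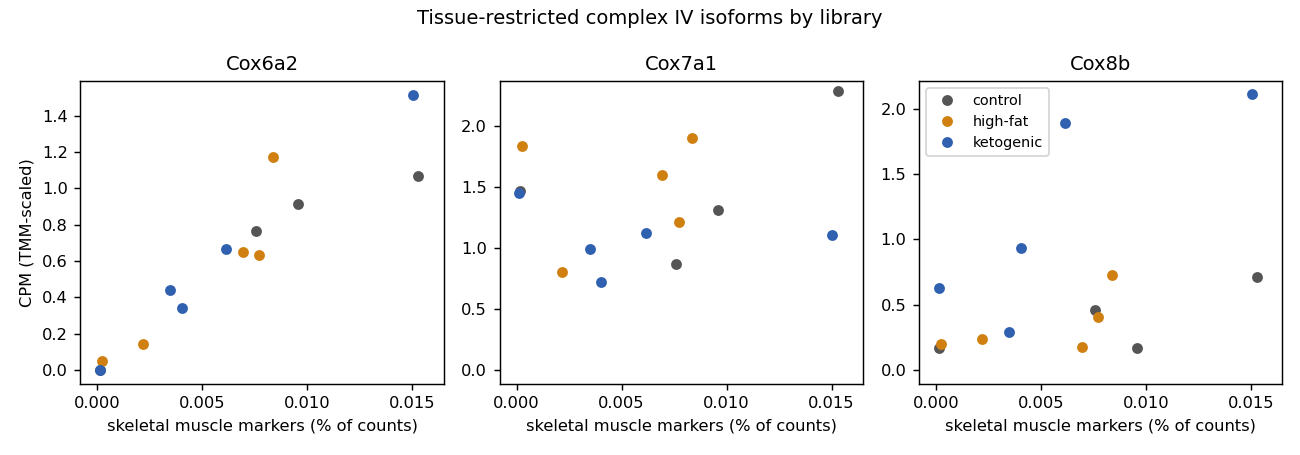
CPM of 3 tissue-restricted complex IV genes (vertical axis) against the summed share of counts of 10 skeletal muscle marker genes (horizontal axis, percent) in each of the 14 libraries, coloured by diet. Cox6a2 is at 0 to 0.05 CPM in the 3 libraries with the least muscle marker RNA, and Cox8b is highest in ketogenic replicates 3 and 4.

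**Figure D4:**
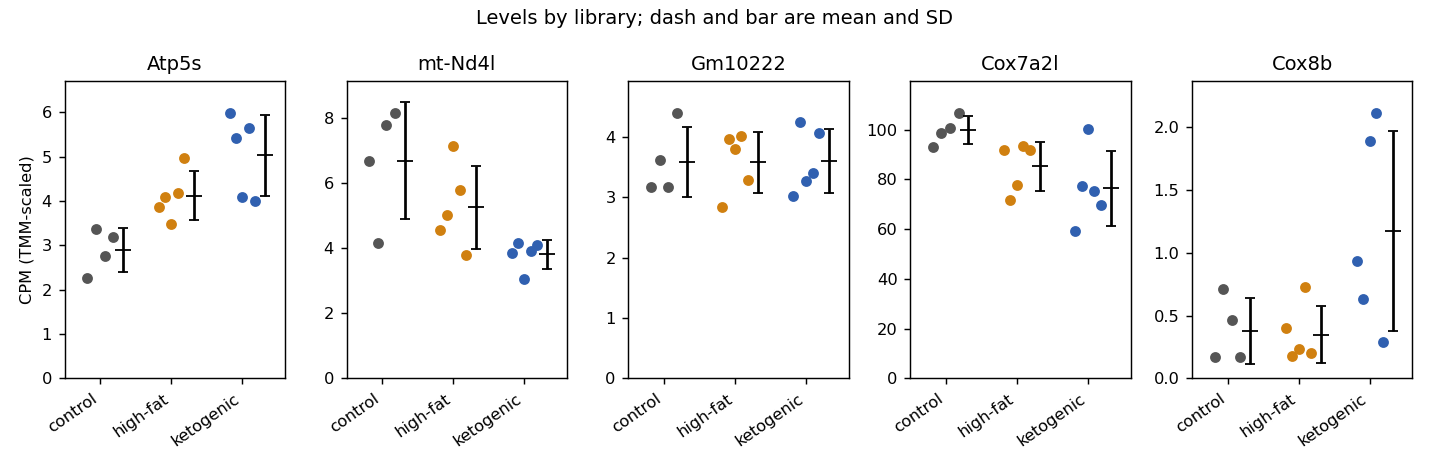
CPM of Atp5s, mt-Nd4l, its nuclear copy Gm10222, Cox7a2l and Cox8b in each library by diet, with the mean and SD beside the points; control has 4 libraries, high-fat and ketogenic 5 each. Atp5s lies above all controls on both fat-rich diets, ketogenic mt-Nd4l lies below all controls, and Gm10222 overlaps between all diets.

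Complex V held the gene with the highest level of all nuclear subunits, Atp5b, the catalytic beta subunit. It was measured at 1303, 1249, 1136 and 1273 CPM in controls, 1427, 1168, 1061, 1309 and 1306 CPM on the high-fat diet and 1146, 1411, 1544, 1393 and 973.5 CPM on the ketogenic diet. The groups overlapped, with ketogenic replicates 3 and 5 at the extremes. Of the 17 nuclear genes tested, Atp5s alone passed, and the lowest ketogenic against control log2 fold change was −0.36, for Atp5g1. Atpif1, the inhibitor of ATP synthase, falls outside the naming rule and averaged 10.2 CPM in controls, 13.1 on the high-fat and 11.8 on the ketogenic diet, with edgeR adjusted p of 0.249 and 0.510 against control.

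Levels between genes were compared per length, as mean CPM over the 14 libraries divided by the length of the transcript in kilobases. By this measure the highest nuclear genes were Atp5b at 660, Atp5g3 at 502, Cox4i1 at 462, Atp5a1 at 444 and Ndufa4 at 378 CPM per kilobase. The medians were 73.3 for the nuclear genes of complex I, 166 for complex II, 167 for complex III, 213 for complex IV and 170 for complex V. Complex I genes ranged from 1.28, for Ndufa4l2, to 241. Ndufa4l2 was counted in complex I by its symbol only, and the next lowest gene was Ndufb2 at 8.67. The length used is that of 1 annotated transcript per gene, so a gene whose liver transcript is shorter is understated.

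The larger differences were between libraries, not between diets. For each nuclear subunit gene the deviation of a library from the mean of the gene's 3 diet means was taken on the log2 scale, and the median over the 82 genes was 0.45 in ketogenic replicate 3 and −0.53 in ketogenic replicate 1. In ketogenic replicate 3, 80 of the 82 genes lay above this mean, and in ketogenic replicate 1 only 3 did. Ketogenic replicate 5 stood at −0.33, control replicate 2 at 0.26, high-fat replicate 5 at 0.24 and high-fat replicate 3 at −0.22, and the other 8 libraries lay between −0.18 and 0.16. The summed nuclear subunit reads took 1.13% ± 0.14 of counts in controls, 1.25% ± 0.12 on the high-fat and 1.24% ± 0.15 on the ketogenic diet, with single libraries from 0.987% in control replicate 4 to 1.46% in ketogenic replicate 3. For the median deviations the spread between libraries of 1 diet was larger than the distance between the diets' means, which were 0.01, 0.03 and −0.06.

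The nuclear genes moved together in this. Over deviations from the diet means in the 14 libraries, the median correlation between pairs of the 77 nuclear subunit genes with a mean of at least 20 CPM was 0.91, given as a description since all pairs share the same libraries, depth and scaling. The same median was 0.06 over all 5538 genes at that level, 0.94 over 76 cytosolic ribosomal protein genes and 0.78 over 53 mitochondrial ribosomal protein genes. It was 0.83 over 83 other genes with transcripts under 700 bases, 0.66 over 667 of 700 to 1500 bases and 0.06 over 4635 above 1500 bases. Subunit transcripts are short, and among the 77 genes, which are not independent, transcript length and within-diet SD had a Spearman correlation of −0.57. By length the subunit genes gave 0.95 under 700 bases, 0.93 from 700 to 1500 bases and 0.84 above 1500 bases. The difference between the long subunit genes and other long genes was not tested.

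The genes that followed the group least were long ones. With the median of the other subunit genes, Ndufs1 correlated at 0.55 and Sdha at 0.56, while Atp5h, a stalk subunit of the ATP synthase, Uqcr11 and Cox5b correlated at 0.99, and 74 of 77 exceeded 0.8. The within-diet SD, as a median over genes on the log2 scale, was 0.30 for the 82 nuclear and 0.28 for the 13 mitochondrially encoded genes, against 0.20 for all genes of at least 20 CPM. The mitochondrially encoded mRNAs moved less in step with the nuclear ones: in high-fat replicate 1 their median deviation was −0.33 where the nuclear genes stood at 0.16, and in high-fat replicate 2 it was 0.21 where the nuclear genes stood at −0.18. That median covers all 13, of which at least 5 have uncertain levels. Over the 6 above 1000 CPM it was −0.16 in high-fat replicate 1 and 0.21 in replicate 2. In ketogenic replicate 1 it was 0.01 over the 6 and −0.35 over the 13. The ratio of mitochondrially encoded to nuclear subunit reads ran from 2.78 to 4.63, both extremes on the high-fat diet.

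Cytosolic ribosomal protein genes moved with the nuclear subunit genes between libraries. Against control, 2 of the 76 were called lower on the high-fat and 4 on the ketogenic diet by edgeR, and 0 higher. Of all tested genes 5.01% and 4.6% were called lower, so the counts lie near these shares. The median log2 fold changes of the 76 were −0.38 and −0.41, and 75 of the 76 were negative in each comparison. By edgeR 40 and 47 of the 76 had an unadjusted p under 0.05, against 27.4% and 28% of all genes. These genes moved together between libraries (median pairwise correlation 0.94), so they are not independent. Their median deviation was between 0.11 and 0.59 in the 4 controls, between −0.44 and 0.15 in the high-fat and between −0.66 and 0.27 in the ketogenic libraries, so the groups overlapped. The difference between the median of the 77 subunit genes and that of the ribosomal protein genes was −0.32 to −0.16 in controls, 0.02 to 0.26 on the high-fat diet and 0.13 to 0.18 on the ketogenic diet except for replicate 5, at −0.17. With the ribosomal protein level as a covariate in the edgeR fit, a setting chosen after seeing the data, 37 of the 95 subunit genes were called higher on the high-fat diet, and 34 higher and 1 lower on the ketogenic diet, against control. In that fit 13.7% and 14% of all genes were called. Within that fit, a rise of the subunit genes relative to the covariate and a fall of the covariate itself cannot be told apart. On the TMM scale without the covariate, the mean deviation of the 77 subunit genes was 0.02 in control, 0.03 in high-fat and −0.06 in ketogenic libraries. That of the ribosomal protein genes was 0.27, −0.12 and −0.15 in the same order.

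**Figure D5:**
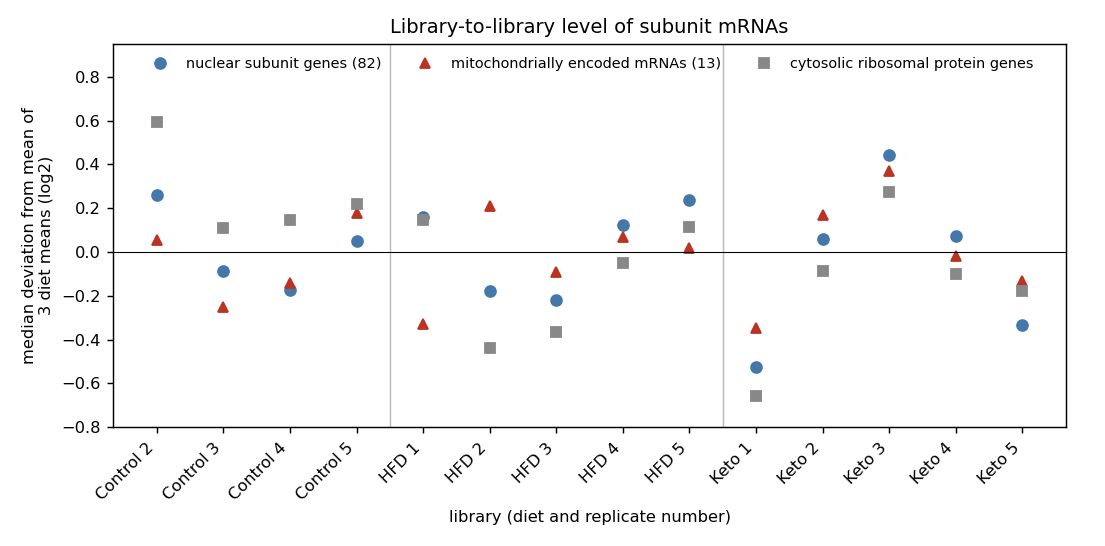
Median deviation of each library from the mean of each gene's 3 diet means (vertical axis, log2) for the 82 tested nuclear subunit genes, the 13 mitochondrially encoded mRNAs and the 76 cytosolic ribosomal protein genes. Nuclear subunit genes run from −0.53 in ketogenic replicate 1 to 0.45 in ketogenic replicate 3, and the 4 controls have positive ribosomal protein values. The 13 include at least 5 mRNAs of uncertain level. In ketogenic replicate 1 the 13 have −0.35, where the 6 mRNAs above 1000 CPM, not plotted alone, have 0.01.

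Many nuclear subunit genes carry sites for the factor NRF1 (nuclear respiratory factor) in their promoters, and the promoters of 3 are shown because their mRNAs followed the group to different degrees. RefSeq windows on GRCm38.p6 of 300 bases, from 250 before to 50 after the annotated start, were matched for 69 of 90 nuclear symbols. The NRF1 letters, GCGCN joined to TGCGC and searched on both strands, occur in 16 of the 69 windows (23.2%) and in 9.90% of the 10721 windows of tested genes. The strict palindrome, GCGCA joined to TGCGC and a subset of these, occurs in 5 (7.25%, against 1.94%). The YY1 core AAGATGG occurs in 10 (14.5%, against 7.06%), the ETS letters CCGGAAGT in 5 (7.25%, against 7.97%) and the ERR letters TCAAGGTCA in 2, those of Atp5g3 and Sdhd (2.90%, against 0.27%). A match is a description of letters, not a bound site. Capitals below mark the NRF1 letters on either strand and, in Ndufs6, also AAGATGG.

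Sdha, chr13:74350191-74350490, minus strand: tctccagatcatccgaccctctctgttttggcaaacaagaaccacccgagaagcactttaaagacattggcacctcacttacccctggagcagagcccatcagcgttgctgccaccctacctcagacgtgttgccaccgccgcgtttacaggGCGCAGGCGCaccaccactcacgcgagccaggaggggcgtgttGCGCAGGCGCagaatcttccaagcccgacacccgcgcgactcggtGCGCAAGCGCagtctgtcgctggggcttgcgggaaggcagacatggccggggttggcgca
Cox6a1, chr5:115348909-115349208, minus strand: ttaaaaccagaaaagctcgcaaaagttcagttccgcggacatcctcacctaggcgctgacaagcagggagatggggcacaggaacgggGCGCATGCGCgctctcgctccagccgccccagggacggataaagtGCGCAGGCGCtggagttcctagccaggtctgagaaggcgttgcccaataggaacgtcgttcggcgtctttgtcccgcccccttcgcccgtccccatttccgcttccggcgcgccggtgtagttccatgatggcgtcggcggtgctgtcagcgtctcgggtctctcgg
Ndufs6, chr13:73328433-73328732, minus strand: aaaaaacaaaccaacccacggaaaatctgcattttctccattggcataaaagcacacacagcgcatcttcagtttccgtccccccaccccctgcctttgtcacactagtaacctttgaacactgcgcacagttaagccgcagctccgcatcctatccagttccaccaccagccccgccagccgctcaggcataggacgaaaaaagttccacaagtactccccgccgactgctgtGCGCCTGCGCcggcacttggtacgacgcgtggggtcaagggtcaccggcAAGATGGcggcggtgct

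The mRNAs of these 3, chosen for their spread, correlated with the other subunit genes at 0.56 (Sdha), 0.94 (Ndufs6) and 0.98 (Cox6a1). Over the 16 genes with the NRF1 letters the median of this correlation was 0.95, and over the 48 genes of at least 20 CPM whose window lacks them it was 0.96.

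Genes around the subunits were counted in lists chosen by function, with earlier results known. Over all tested genes 6.95% rose and 5.01% fell on the high-fat diet and 7.47% rose and 4.6% fell on the ketogenic diet against control, and the counts below are descriptions to be read against these shares. Of 52 tested assembly factor genes 4 rose and 1 fell on the high-fat diet and 3 rose on the ketogenic diet against control, of 13 regulators of mitochondrial biogenesis 2 and 1 fell, and of 78 mitochondrial ribosomal protein genes 1 rose and 1 fell in each. Of 28 genes for mitochondrial DNA and RNA upkeep 2 rose and 1 fell on the high-fat diet and 2 rose on the ketogenic diet, and of 14 for cytochrome c and ubiquinone synthesis 1 rose and 1 fell on the high-fat diet and 2 rose on the ketogenic diet. Of 9 other electron donors to ubiquinone 1 rose in each comparison, and of 9 carriers, porins and uncoupling proteins 1 rose in each. Of 14 citric acid cycle genes 2 rose on the high-fat diet and 4 rose and 1 fell on the ketogenic diet, and of 9 cristae and cardiolipin genes 2 and 3 rose. Between the ketogenic and the high-fat diet none of these lists had a call by edgeR.

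Etfdh and Ucp2 were the 2 genes called among the other electron donors and the carriers. Etfdh, the oxidoreductase that passes electrons from fatty acid oxidation to ubiquinone, averaged 158 ± 12.8 CPM in controls, 272 ± 18.1 on the high-fat and 319 ± 45.2 on the ketogenic diet. Its log2 fold changes were 0.79 ± 0.12 and 1.02 ± 0.12 (edgeR adjusted p = 0.000772 and 9.67e-05). The part of the lower hepatocyte and higher stellate marker shares in this and the following differences was not tested. Ucp2, an uncoupling protein of the inner membrane, averaged 31.0 ± 3.59, 61.7 ± 12.1 and 85.6 ± 20.4 CPM, with log2 fold changes of 0.99 ± 0.18 and 1.46 ± 0.18 (edgeR adjusted p = 0.00258 and 0.000127). Chchd6, a component of the complex that shapes cristae, went from 1.31 ± 0.47 CPM to 5.58 ± 1.2 and 5.26 ± 0.84 CPM, with log2 fold changes of 2.09 ± 0.25 and 2.005 ± 0.25 (edgeR adjusted p = 0.000146 and 0.000127). The assembly factor genes Acad9, for complex I, and Cox19, for complex IV, rose by 0.46 ± 0.09 and 0.61 ± 0.13 on the high-fat and by 0.43 ± 0.09 and 0.57 ± 0.13 on the ketogenic diet, on the log2 scale, with edgeR adjusted p from 0.00461 to 0.00969.

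Among the citric acid cycle genes Idh2, mitochondrial isocitrate dehydrogenase, had log2 fold changes of 0.68 ± 0.15 and 0.90 ± 0.15, and Suclg2, a succinyl-CoA ligase subunit, had 0.56 ± 0.11 and 0.61 ± 0.11, with edgeR adjusted p from 0.000812 to 0.00723. Esrra, a nuclear receptor known to drive subunit genes, averaged 49.9 ± 5.37 CPM in controls, 34.2 ± 5.89 on the high-fat and 33.3 ± 5.65 on the ketogenic diet. Its log2 fold changes were −0.55 ± 0.14 and −0.58 ± 0.14 (edgeR adjusted p = 0.0202 and 0.0135). The high-fat call ended without high-fat replicate 2, 4 or 5 or control replicate 3. Values there ran from −0.50 to −0.52, with edgeR adjusted p from 0.0506 to 0.0648. With the ribosomal protein covariate both calls ended, at −0.40 for high-fat and −0.43 for ketogenic (edgeR adjusted p = 0.0821 and 0.0702). Of the genes looked at whatever their result, Ppargc1a, Ppargc1b, Nrf1, Gabpa, Tfam, Polrmt, Cycs, Slc25a5 and Cs passed in no comparison. Tfam, which packages and transcribes mitochondrial DNA, averaged 42.1 ± 2.38, 41.4 ± 2.23 and 41.4 ± 5.43 CPM, and the smallest edgeR adjusted p of the 9 was 0.0569, for citrate synthase, Cs, in the ketogenic comparison with control.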

How the data were processed

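The authors deposited raw read counts, as whole numbers by Ensembl gene with a column for each library, and these were used unchanged. Per the submitters' processing notes the authors used cutadapt 1.16, STAR 2.7.9a, featureCounts 1.6 and DESeq2 1.36.0 with the mouse build GRCm39. The annotation release, strand setting and treatment of reads with several matches are unstated in these sources. Symbols, transcript lengths and 50-base windows came from GENCODE M21, which belongs to an earlier build; 98.2% of tested IDs matched.

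Low genes were dropped with filterByExpr of edgeR 4.0.16 (minimum count 10); libraries were scaled with TMM (factors 0.886 to 1.215) and genes tested in 1 robust quasi-likelihood fit of the 14 libraries in R 4.3.3, two-sided, with Benjamini-Hochberg adjustment over 14627 genes and a threshold of 0.05. The SE is the absolute log2 fold change divided by the square root of F. DESeq2 1.42.0 was an alternative. The procedure was tested on simulated data in which genes varied independently of each other. That setting lacks the shared shifts between libraries seen here, so its outcome is not used as support. Deviations used log2(CPM + 0.5). Named were genes past the threshold, the mitochondrially encoded mRNAs, Sdha to Sdhd, Cyc1, the most abundant nuclear gene per complex, the complex IV forms, and up to 3 called genes per further list, of which part is printed; 1 gene is not reported here. The genes and lists were chosen with earlier results of these data known.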

Additional observations from a re-analysis of the deposited data

Results flagged for a closer look

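Of 120 groups checked, 3 had 1 library far from the rest of its diet, fewer than the 1 in 20 that chance gives. mt-Nd4l stood at 3.06 CPM in ketogenic replicate 3, with the other ketogenic libraries between 3.86 and 4.15. mt-Nd5, a core membrane subunit of complex I, stood at 3927 CPM in ketogenic replicate 5, with the others between 4943 and 4993. mt-Nd6 stood at 73.0 CPM in control replicate 4, with the others between 89.7 and 92.9. All 3 are mitochondrially encoded mRNAs of complex I. In control replicate 1, which entered no comparison, pancreatic acinar marker genes took 1.70% of counts, against 0.00251% to 0.181% in the other controls. The 0.181% was in control replicate 2, which entered the comparisons, while replicates 3, 4 and 5 held 0.00251%, 0.00632% and 0.0168%. Without control replicate 2 the nuclear median log2 fold change was 0.11 for high-fat and 0.08 for ketogenic against control. The same subunit genes were called. The part of these marker reads in the results was not tested.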

How the results depend on the processing

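Besides the reported fit, 25 alternatives were run: 24 planned, of which 14 left out 1 library each, and 1 chosen after seeing the data. Between the ketogenic and the high-fat diet 0 subunit genes were called in all 25. In the high-fat comparison with control the count was 3 by library totals (Ndufa10, Uqcrc2 and Atp5s, all higher) and 37 with the ribosomal protein covariate, and 0 in the others, the left-out libraries included (0 to 0). In the ketogenic comparison with control it was 8 by library totals, all higher (Sdha, Ndufs1, Ndufb3, Ndufa10, Uqcrc2, Atp5s, mt-Nd1 and mt-Nd2) and without mt-Nd4l (−0.62, edgeR adjusted p = 0.0914), 35 with the covariate, and 1 to 5 when 1 library was left out. The covariate moved the nuclear median to 0.35 and 0.31 and turned Ndufa8 on the high-fat diet to 0.066. The cause of these changes was not tested.

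Replicate numbers are shared between the diets, but libraries with the same number did not deviate together: correlations over 13 pairs ran from −0.56 to 0.47, with 4 over 0.1. With the replicate number as a block 1 subunit gene was called in the ketogenic comparison, Cox8b (1.54, edgeR adjusted p = 0.0461), while Atp5s (0.76) and mt-Nd4l (−0.77) had edgeR adjusted p of 0.0503 and 0.0769.

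Atp5s, mt-Nd4l and Cox8b rest on 1194, 1464 and 192 reads over the 14 libraries, so their levels are known less well than those of the abundant subunit genes.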

Other observations

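In control replicate 1, left out of the comparisons, nuclear subunit genes took 1.13% of counts and mitochondrially encoded mRNAs 4.12%, both inside the range of the other libraries.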
